A study of Mus musculus with 12 samples.

Results

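The genes described here are 36 genes of skeletal muscle sarcomeres, calcium handling and muscle energy supply, measured in white adipose tissue. They were chosen by symbol from a list of muscle genes, and each gene was read from its brightest probe set by the mean of the 12 arrays. All 36 were on the array, which named 18194 genes in all. Of the 36, 11 were sarcomere genes of fast fibres, 6 were sarcomere genes of slow fibres and 9 were sarcomere genes of any fibre. A further 3 were calcium genes of fast fibres, 3 were calcium genes of any fibre, and 4 served energy supply or other roles.

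The tissue came from male C57/BL6 mice aged 6 to 8 weeks, without any transgene or deletion named in the labels. In the cold groups mice were housed at 4 °C for 1 week or for 5 weeks, and control mice were sampled at the same times, with 3 arrays in each of the 4 groups. Mice had lived at 22 °C and were adapted to 18 °C for 1 to 3 weeks. For the controls the sample titles gave 30 °C and the source names gave room temperature, so the control temperature is not settled. The labels name no fat depot and do not tie each array to an animal of its own, so a p-value here sets a difference against array-to-array spread that may be technical.

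Skeletal muscle contracts when myosin heads of the thick filament pull on actin in the thin filament. Calcium released from the sarcoplasmic reticulum binds troponin and so permits the pull, and a pump returns it to the store. Fast and slow fibres build the same machine from different gene copies, so a set of fast and slow genes shows which kind of fibre a sample holds. Adipocytes are not known to assemble sarcomeres, while fat depots lie beside muscles of the body wall and limbs.

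The values are log2 signals as deposited, and 1 unit is a doubling of signal. Signals of different probe sets are not comparable with each other, so genes are compared only with themselves across arrays. A gene was tested when its signal exceeded log2 4 on at least 3 arrays, as 12856 genes did. Of the 36 muscle genes 27 passed. Of these 27, 6 (Tnnt3, Mybpc2, Neb, Smpx, Pygm and Apobec2) exceeded log2 4 only on arrays where muscle genes were high, so they had to differ between arrays. Myh1 exceeded log2 4 on 5 arrays, the 3 of control at 5 weeks and replicate 2 of each 1 week group. It thus passed the filter only with control at 5 weeks, where it was highest. Values of Myh1 and of these 6 genes, and counts and medians that include them, are descriptions. No p-value is given for them. The 9 untested genes were Myh2, Myl2, Tnnc1, Tnni1, Tnnt1, Casq1, Cacna1s, Sln and Myot. Array medians were 4.79 to 4.89, and the number of arrays limits the precision. Arrays are named by group and by the replicate number in their title.

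Muscle transcripts were high on 4 of the 12 arrays. These were replicate 2 of cold at 1 week and all 3 arrays of control at 5 weeks. Over the 27 tested muscle genes the mean log2 signal was 4.81, 8.20 and 4.89 in cold at 1 week (replicates 1 to 3), against 4.88, 5.16 and 4.77 in control at 1 week. It was 4.74, 4.73 and 4.65 in cold at 5 weeks, against 6.82, 7.09 and 6.97 in control at 5 weeks. In cold at 1 week the group thus held 1 high array beside 2 that overlapped the controls, while at 5 weeks no cold array reached a control array. In bulk tissue, fewer muscle cells in a sample and less RNA per muscle cell cannot be told apart.

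The same split was steeper among fast sarcomere genes. Their mean over 10 tested genes was 5.38, 10.07 and 5.50 in cold at 1 week, against 5.52, 5.91 and 5.34 in control at 1 week. At 5 weeks it was 5.24, 5.30 and 5.26 in cold, against 7.94, 8.22 and 8.19 in control. The 2 fast calcium genes tested averaged 4.78, 10.30 and 4.26 in cold at 1 week, against 4.07, 4.51 and 4.40 in control at 1 week, and 4.60, 4.28 and 3.36 in cold at 5 weeks, against 7.63, 7.87 and 7.09 in control at 5 weeks. By contrast, the 2 slow sarcomere genes tested averaged between 5.25 and 5.87 on all 12 arrays. Replicate 2 of cold at 1 week lay more than 1 log2 unit above both other arrays of its group in 23 of the 36 genes, among them 10 of the 11 fast sarcomere genes and 0 of the 6 slow ones. Over the tested genes that are not among the 36 that share was 0.312%, or 40 of 12829. It counts only genes that passed the filter, as 27 of the 36 did. The heatmap of the 36 genes shows the 4 high arrays as bright columns that are absent from the slow genes.

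**Figure D1:**
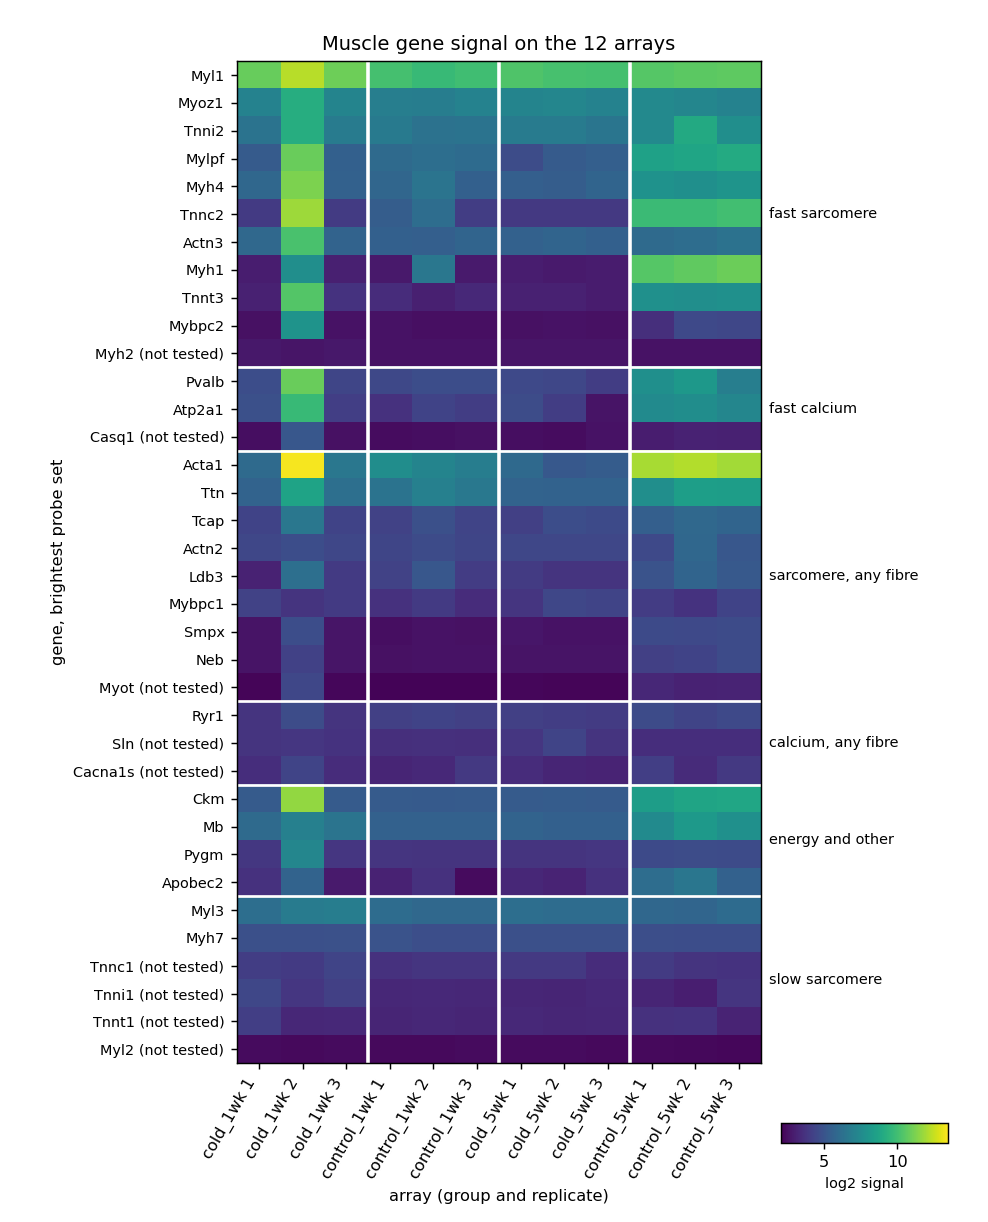
Log2 signal of the 36 muscle genes (rows, by role and then by mean) on the 12 arrays (columns, by group and replicate); brighter cells are higher signals, and genes that did not pass the filter are marked. Replicate 2 of cold at 1 week and the 3 control arrays at 5 weeks are bright in most fast sarcomere, fast calcium and energy genes and in most sarcomere genes of any fibre, and the slow sarcomere genes and the calcium genes of any fibre have no such columns.

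The fast myosin heavy chains separated the high arrays from each other. Myh4 encodes the type IIB heavy chain of the fastest fibres, Myh1 the type IIX chain and Myh2 the type IIA chain. These genes lie next to each other on chromosome 11, in the order Myh3, Myh2, Myh1, Myh4, Myh8 and Myh13. Because they are so alike in sequence, their probe sets may share signal, and the main Myh1 probe set carries the array maker's suffix for probes that can match other transcripts. The stretches before the starts of Myh4, Myh1 and the fast light chain gene Mylpf are shown because each of the 3 genes was higher on each of the 4 high arrays than on any of the other 8, in different proportions. They are the 250 bases upstream of the RefSeq start on GRCm38.p6, all on the plus strand, 5′ to 3′, at chr11:67237562-67237811, chr11:67199852-67200101 and chr7:127211358-127211607. Capitals mark E-boxes (CANNTG, the letters that myogenic helix-loop-helix factors such as MyoD recognise) and sites of the muscle factor family MEF2.
Myh4: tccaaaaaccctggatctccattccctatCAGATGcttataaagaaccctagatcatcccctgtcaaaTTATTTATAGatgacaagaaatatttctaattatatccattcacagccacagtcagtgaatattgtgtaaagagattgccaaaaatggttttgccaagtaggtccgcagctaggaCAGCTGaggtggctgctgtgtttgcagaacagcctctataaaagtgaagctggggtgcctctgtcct
Myh1: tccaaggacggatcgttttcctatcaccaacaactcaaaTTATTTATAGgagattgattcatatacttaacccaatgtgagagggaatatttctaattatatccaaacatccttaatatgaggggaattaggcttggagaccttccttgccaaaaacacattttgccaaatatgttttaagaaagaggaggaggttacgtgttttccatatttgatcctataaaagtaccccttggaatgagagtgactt
Mylpf: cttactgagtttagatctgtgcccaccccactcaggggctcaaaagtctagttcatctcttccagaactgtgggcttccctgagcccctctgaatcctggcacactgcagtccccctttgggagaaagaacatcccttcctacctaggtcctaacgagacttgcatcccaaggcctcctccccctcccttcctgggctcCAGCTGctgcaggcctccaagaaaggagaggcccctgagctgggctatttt

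The Myh4 stretch held E-boxes 221 and 67 bases before the start and a MEF2 site 182 bases before it. Myh1 had a MEF2 site 211 bases before its start and no CANNTG in this window, and Mylpf had an E-box 51 bases before its start. RefSeq promoters of GRCm38.p6 were matched for 28 of the 36 genes; Actn3, Tcap, Tnni2, Sln, Myoz1, Tnnt3, Neb and Myot had no entry in the table. On either strand of that window, CANNTG stood in 82.1% of the 28 genes and in 69.3% of all 27025 genes. The form CAGCTG, which is also counted as CANNTG, stood in 14 of the 28 genes and in 14.7% of all genes. A MEF2 site stood in 14.3% of the 28 and in 3.42% of all genes, and a CArG box, the site of serum response factor, in 14.3% and 1.62%. Such matches describe letters only.

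Myh1 had log2 signals of 2.93, 2.83 and 2.86 in cold at 5 weeks, against 10.48, 10.70 and 10.91 in control at 5 weeks. At 1 week it read 2.93, 7.69 and 2.99 in cold, against 2.80, 6.56 and 2.81 in control. All 3 control arrays at 5 weeks were therefore far above every other array, and replicate 2 of each 1 week group was above the other arrays of its group. A second Myh1 probe set gave the same order, with 2.61, 2.53 and 2.46 in cold at 5 weeks against 10.48, 10.78 and 10.99 in control at 5 weeks, and 7.95 and 6.22 on replicate 2 of cold and of control at 1 week. The third stayed at or below 3.23 on all arrays. Replicate 2 of control at 1 week exceeded both other arrays of its group by more than 1 log2 unit in Myh1 alone among the 36 genes.

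Myh4 read 5.46, 5.39 and 5.70 in cold at 5 weeks, against 7.84, 7.73 and 7.94 in control at 5 weeks. At 1 week its signals were 5.82, 11.24 and 5.55 in cold, against 5.80, 6.42 and 5.51 in control. Replicate 2 of cold at 1 week was thus 3.41 log2 units above the mean of control at 5 weeks for Myh4, while it was 3.01 below that mean for Myh1 (difference -3.01). Myh2 lay between 2.54 and 2.73 on all 12 arrays, below the filter, and showed no high array.

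**Figure D2:**
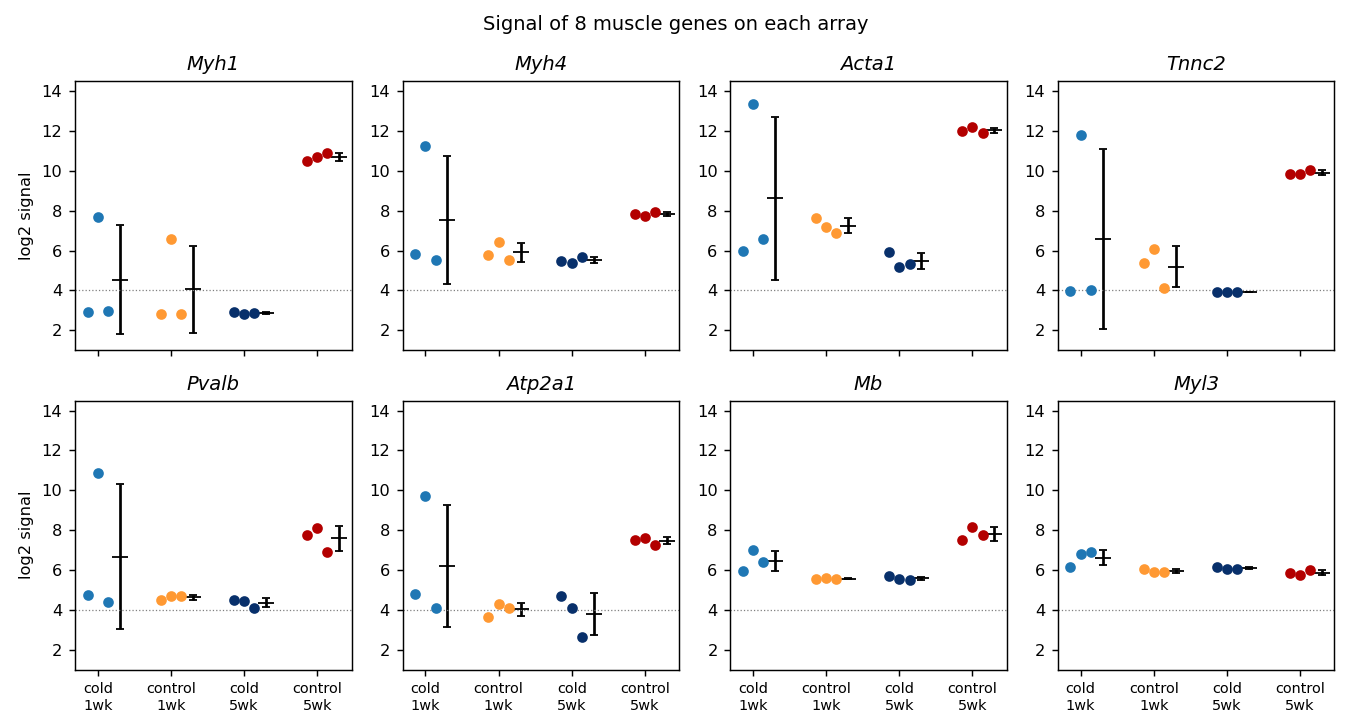
Log2 signal of 8 muscle genes on each array (dots), with the group mean and SD (n = 3) beside them, for cold and control at 1 week and at 5 weeks; the dotted line marks log2 4. Control at 5 weeks stands high for Myh1, Acta1, Tnnc2 and Mb, replicate 2 of cold at 1 week is the highest dot for Myh4, Acta1, Tnnc2, Pvalb and Atp2a1, and Myl3 differs little between groups.

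The troponin complex, which makes the thin filament sensitive to calcium, had all 3 of its fast subunits high on the same arrays. Tnnc2, the calcium-binding subunit, read 3.93, 3.92 and 3.91 in cold at 5 weeks, against 9.84, 9.83 and 10.04 in control at 5 weeks. It read 3.95, 11.81 and 4.01 in cold at 1 week, against 5.37, 6.10 and 4.10 in control at 1 week. The groups did not overlap at 5 weeks, and at 1 week replicates 1 and 3 of cold lay below all 3 controls while replicate 2 lay above them.

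Tnnt3, the tropomyosin-binding subunit, read 3.05, 3.04 and 2.88 in cold at 5 weeks, against 7.77, 7.67 and 7.76 in control at 5 weeks. Its signals at 1 week were 3.05, 10.43 and 3.69 in cold, against 3.48, 3.02 and 3.32 in control. Tnni2, the inhibitory subunit, read 6.78, 6.80 and 6.49 in cold at 5 weeks, against 7.41, 8.98 and 7.69 in control at 5 weeks, and 6.40, 9.17 and 6.78 in cold and 6.68, 6.34 and 6.40 in control at 1 week. This main Tnni2 probe set carries the same suffix as that of Myh1, so part of its signal may come from other transcripts. A dimmer Tnni2 probe set separated the groups more widely, at 3.71, 2.83 and 4.70 in cold at 5 weeks against 8.62, 9.18 and 9.25 in control at 5 weeks. The log2 difference was -5.27 by this set and -1.34 by the main one. The slow counterparts Tnnc1, Tnnt1 and Tnni1 did not pass the filter. Tnnc1 lay between 3.45 and 4.36, Tnnt1 between 3.14 and 4.15, and Tnni1 between 2.97 and 4.43. For Tnni1 the highest arrays were replicates 1 and 3 of cold at 1 week, at 4.43 and 4.18, and not the arrays high in fast genes.

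Of the fast light chains, Mylpf, the regulatory one, read 4.66, 5.28 and 5.47 in cold at 5 weeks, against 8.58, 8.75 and 9.01 in control at 5 weeks. It read 5.32, 10.85 and 5.54 in cold at 1 week, against 5.98, 6.14 and 6.00 in control at 1 week. Myl1, the essential light chain, was bright on every array. Its signals were 10.35, 10.16 and 10.10 in cold and 10.49, 10.62 and 10.66 in control at 5 weeks, and 10.81, 12.25 and 10.96 in cold and 10.13, 9.73 and 9.97 in control at 1 week. Here all 3 cold arrays at 1 week lay above the controls, replicate 2 the highest.

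The remaining fast sarcomere genes were high mainly on replicate 2 of cold at 1 week. Actn3, the alpha-actinin of fast Z-discs, read 5.89, 10.18 and 5.66 in cold at 1 week, against 5.51, 5.49 and 5.70 in control at 1 week, and 5.56, 5.71 and 5.54 in cold at 5 weeks, against 5.99, 6.13 and 6.35 in control at 5 weeks. Myoz1, a Z-disc protein that binds calcineurin, read 7.08, 9.16 and 7.20 in cold and 6.93, 6.88 and 7.11 in control at 1 week, and 7.18, 7.27 and 7.09 in cold and 7.43, 7.26 and 7.12 in control at 5 weeks. Mybpc2, fast myosin-binding protein C, read 7.91 on replicate 2 of cold at 1 week, 2.51 to 2.57 in cold at 5 weeks, and 3.56, 4.56 and 4.45 in control at 5 weeks. Mybpc2 is one of the genes described without a test. At 5 weeks Actn3 and Mybpc2 did not overlap between groups, and Myoz1 did.

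Most sarcomere genes of any fibre followed the fast ones. Acta1, skeletal muscle alpha-actin, read 5.94, 5.15 and 5.33 in cold at 5 weeks, against 11.99, 12.17 and 11.90 in control at 5 weeks. At 1 week it read 5.97, 13.34 and 6.58 in cold, against 7.63, 7.20 and 6.88 in control. Cold replicates 1 and 3 at 1 week were below every control, replicate 2 was the highest of the 12 arrays, and at 5 weeks the groups were far apart.

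Ttn, the spring that spans the sarcomere, read 5.68, 5.63 and 5.63 in cold at 5 weeks, against 7.68, 8.43 and 8.40 in control at 5 weeks, and 5.68, 8.67 and 6.20 in cold at 1 week, against 6.37, 7.03 and 6.62 in control at 1 week. Of the other Ttn probe sets that passed the filter, one ran the same way at 5 weeks (log2 difference -0.94), and one, at 4.76, 4.89 and 4.82 in cold and 4.49, 4.69 and 4.59 in control at 5 weeks, the other way (0.23). Neb, which lines the thin filament, read 2.61 on each cold array at 5 weeks, against 4.19, 4.33 and 4.63 in control at 5 weeks, and 2.61, 4.21 and 2.63 in cold at 1 week, against 2.52, 2.58 and 2.57 in control at 1 week. Smpx, a small protein of muscle cells, read 2.71, 2.58 and 2.57 in cold at 5 weeks, against 4.60, 4.54 and 4.65 in control at 5 weeks, and 2.60, 4.72 and 2.63 in cold at 1 week, against 2.44, 2.56 and 2.53 in control at 1 week. Unlike Myh4 and Actn3, these 3 genes were about as high on replicate 2 of cold at 1 week as in control at 5 weeks.

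The remaining genes of this role had smaller gaps between the 5 week groups, or none. Actn2, a Z-disc alpha-actinin, read 4.46, 4.44 and 4.44 in cold at 5 weeks, against 4.56, 5.82 and 5.14 in control at 5 weeks, and 4.46, 4.70 and 4.47 in cold at 1 week, against 4.39, 4.63 and 4.41 in control at 1 week. Tcap, which caps titin at the Z-disc, read 4.19 to 4.74 in cold and 5.49 to 5.90 in control at 5 weeks. Ldb3, another Z-disc protein, read 3.72 to 4.02 in cold and 4.95 to 5.72 in control at 5 weeks, so neither Tcap nor Ldb3 overlapped. Mybpc1 is named slow-type myosin-binding protein C but was counted here with the genes of any fibre, not with the slow ones. It overlapped between the groups at 3.76 to 4.46 in cold and 3.69 to 4.32 in control at 5 weeks, and its highest array was replicate 2 of cold at 5 weeks. Myot, a Z-disc protein below the filter, had its highest signal, 4.44, on replicate 2 of cold at 1 week.

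Calcium handling genes of fast fibres were high on the same 4 arrays. Atp2a1, the pump that returns calcium to the store in fast fibres, read 4.68, 4.09 and 2.62 in cold at 5 weeks, against 7.51, 7.62 and 7.28 in control at 5 weeks. It read 4.81, 9.73 and 4.12 in cold at 1 week, against 3.66, 4.31 and 4.11 in control at 1 week. Pvalb, a calcium buffer of fast fibres, read 4.52, 4.47 and 4.10 in cold at 5 weeks, against 7.74, 8.11 and 6.90 in control at 5 weeks, and its 1 week signals were 4.74, 10.88 and 4.40 in cold, against 4.49, 4.71 and 4.70 in control. For both genes the 5 week groups were apart, and replicate 2 of cold at 1 week was the highest of the 12 arrays. Casq1, the calcium store protein of fast fibres, did not pass the filter, with 2.44, 2.40 and 2.57 in cold and 2.93, 3.08 and 3.05 in control at 5 weeks, and 5.14 on replicate 2 of cold at 1 week.

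Ryr1, the calcium release channel, read 4.17, 4.11 and 4.02 in cold and 4.64, 4.36 and 4.52 in control at 5 weeks. At 1 week it read 3.75, 4.68 and 3.71 in cold and 4.17, 4.30 and 4.18 in control. Cacna1s, the voltage sensor that opens Ryr1, lay between 3.14 and 4.34 on the 12 arrays. Sln, a small inhibitor of the calcium pump, lay between 3.50 and 4.36 with its brightest probe set, whereas its dimmer set read 2.05, 2.97 and 2.97 in cold and 3.73, 4.62 and 5.01 in control at 5 weeks. The Sln probe sets thus disagreed, and neither passed the filter.

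The energy genes split by array too. Ckm, muscle creatine kinase, read 5.28, 5.34 and 5.30 in cold at 5 weeks, against 8.42, 8.73 and 8.80 in control at 5 weeks, and 5.28, 11.62 and 5.30 in cold at 1 week, against 5.31, 5.26 and 5.30 in control at 1 week. A dimmer Ckm probe set that passed the filter disagreed at 5 weeks, at 4.84, 4.11 and 4.14 in cold and 4.06, 4.19 and 4.08 in control, and read 4.73 on replicate 2 of cold at 1 week. Pygm, muscle glycogen phosphorylase, read 3.75, 3.74 and 3.82 in cold and 4.57, 4.67 and 4.62 in control at 5 weeks, and 7.27 on replicate 2 of cold at 1 week. By their main probe sets both were highest on that array, and their 5 week groups did not overlap. Mb, the oxygen carrier myoglobin, read 5.68, 5.53 and 5.52 in cold and 7.50, 8.17 and 7.76 in control at 5 weeks. At 1 week Mb read 5.96, 7.0 and 6.41 in cold and 5.56, 5.58 and 5.57 in control. All 3 control arrays at 5 weeks exceeded every other array for Mb. Apobec2, a muscle member of the cytidine deaminase family, read 3.27, 3.15 and 3.65 in cold and 6.11, 6.50 and 5.59 in control at 5 weeks, and 3.66, 5.68 and 2.85 in cold and 3.09, 3.64 and 2.34 in control at 1 week. Its other probe set passed the filter as well and had no such high arrays, at 4.07, 4.19 and 4.69 in cold and 3.79, 3.97 and 4.58 in control at 5 weeks.

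Slow sarcomere genes gave no sign of the high arrays. Myh7, the slow heavy chain, lay between 4.74 and 4.92 on all 12 arrays. Myl3, the slow essential light chain, read 6.15, 6.06 and 6.07 in cold and 5.83, 5.77 and 6.01 in control at 5 weeks, and 6.17, 6.80 and 6.88 in cold and 6.05, 5.89 and 5.89 in control at 1 week. Myl2, the slow regulatory light chain, lay between 2.22 and 2.35. For Myl3 all cold arrays at both times were above the controls of the same time, and replicate 2 of cold at 1 week did not stand apart from replicate 3. A weak slow signal below the range of these probe sets was not detectable here.

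Testing cold against control at 5 weeks with limma, 12 of the 27 tested muscle genes fell and 0 rose (adjusted p under 0.05). Over all tested genes 21.2% fell and 15.0% rose. At an unadjusted p under 0.05 the counts were 17 lower and 0 higher. By role, 4 of 10 fast sarcomere genes, 5 of 8 sarcomere genes of any fibre, 1 of 2 fast calcium genes, 0 of 1 calcium gene of any fibre, 2 of 4 energy genes and 0 of 2 slow genes fell. Of the 6 genes that passed the filter only through high arrays 4 fell, and of the other 21 tested genes 8 fell, Myh1 among them. In 23 of the 27 all cold arrays lay below all control arrays, against 30.7% of all tested genes, and the 2 slow genes were the reverse, as were 28.3% of all tested genes. The median log2 fold change of the 27 was -1.77, beside -0.03 for all tested genes.

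Acta1 fell by 6.54 log2 units (SE 1.43, adjusted p = 0.00446, limma), with group means of 5.47 ± 0.42 in cold and 12.02 ± 0.14 in control (SD, n = 3 each). Myh1, described without a test, was lower by 7.83, at least 104-fold with signals below log2 4 set to 4. Tnnc2 fell by 5.98 (SE 1.60, adjusted p = 0.0133, limma), at least 59.8-fold. In each of these genes the difference was many times the SD within either 5 week group.

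Of the genes that passed the filter only through high arrays, Tnnt3 was at least 13.3-fold lower in cold, Apobec2 at least 4.19-fold, Smpx at least 1.51-fold and Neb at least 1.30-fold, given as values without a test. Atp2a1 fell by 3.68 log2 units and Mylpf by a similar 3.64, with a log2 fold change of -3.64 (adjusted p = 0.0253 and 0.0234, limma). Ttn had a log2 fold change of -2.52, Mb of -2.23 and Actn2 of -0.73 (adjusted p = 0.00634, 3.5e-05 and 0.0326, limma). Mb had the smallest SE relative to its change, 0.23.

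Several genes with wide gaps between the 5 week groups did not pass in this fit, whose shared spread includes replicate 2 of cold at 1 week. Ckm had a log2 fold change of -3.34 (SE 1.26, adjusted p = 0.0596, limma), Pvalb of -3.22 (adjusted p = 0.071) and Myh4 of -2.32 (adjusted p = 0.131). Without that array the fold changes at 5 weeks are the same by construction and the SE is smaller. The SE was then 0.10 for Ckm, 0.26 for Pvalb and 0.20 for Myh4. That array was singled out because these genes were high on it, so leaving it out had to shrink their SE. Fits without it, here and below, describe that dependence and are no separate test. In this one 23 of the 27 genes fell, against 22.8% of all tested genes, the earlier 12 among them. The 23 include Myh1 and the 6 genes that passed the filter only through high arrays. Mybpc1, Myh7, Myl3 and Myoz1 did not pass. With the 5 week groups fitted alone 22 fell, against 24.1% of all tested genes, again with Myh1 and those 6 genes included. Of the earlier 12, 11 were among the 22, and Actn2 did not pass in that fit. The plot of fold changes with and without that array shows the change in SE.

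**Figure D3:**
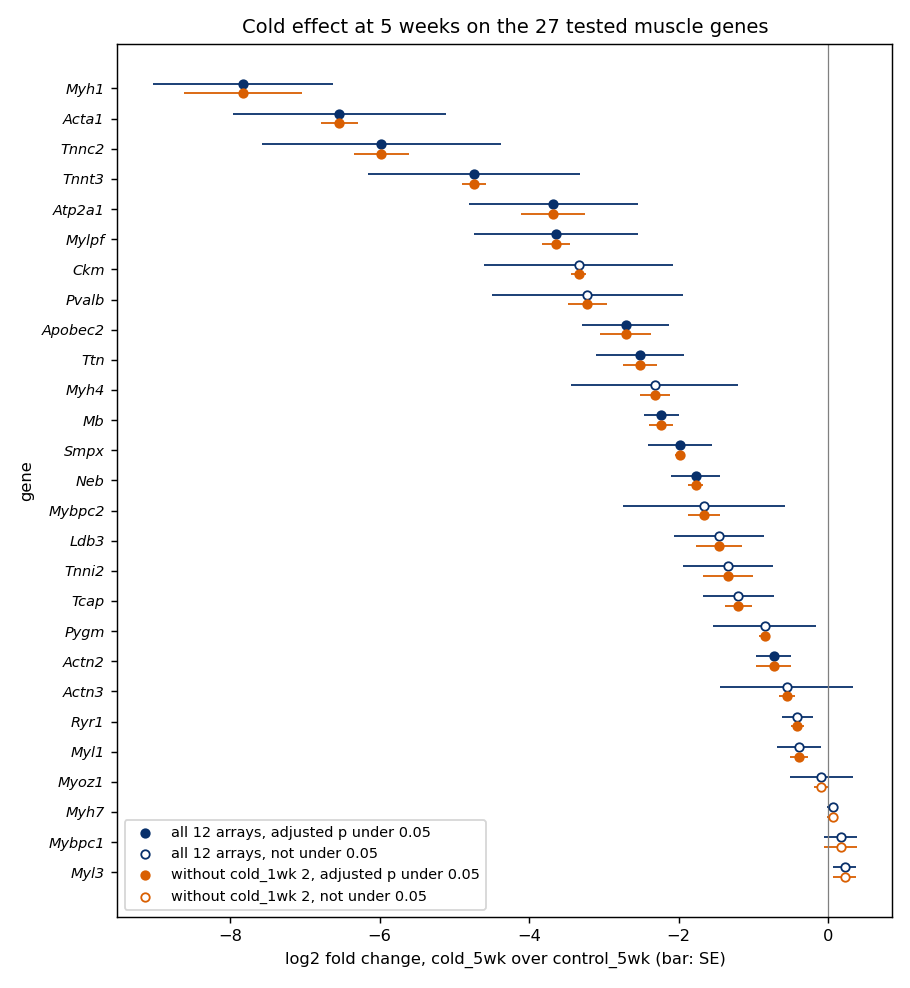
Log2 fold change of the 27 tested muscle genes in cold over control at 5 weeks, with the SE as a bar, fitted on all 12 arrays (blue) and without replicate 2 of cold at 1 week (orange); filled points have an adjusted p under 0.05. The points coincide and the orange bars are mostly shorter. There are 12 filled blue points and 23 filled orange ones, counting Myh1 and the 6 genes that passed the filter only through high arrays.

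Control at 5 weeks was the most uniform group. Arrays correlated with the others of their group at a mean r of 0.9916 to 0.9955 over all probe sets in the other groups, and of 0.9974 to 0.9977 in control at 5 weeks. The median SD of the tested genes outside the muscle list was 0.15 in cold and 0.14 in control at 1 week, and 0.13 in cold and 0.09 in control at 5 weeks. The 36 muscle genes had median SDs of 1.30 in cold and 0.10 in control at 1 week, and of 0.09 in cold and 0.18 in control at 5 weeks. The labels do not say that these 3 arrays share tissue or RNA. With control at 5 weeks averaged and counted as 1 array, Myh1, Mb and Actn2 passed, against 6.36% of all tested genes, and 9 had an unadjusted p under 0.05. The call of Myh1 in this fit is no test, since Myh1 passed the filter only with control at 5 weeks. Of the genes named, only Mb and Actn2 passed the filter without that dependence. The fit with this group averaged takes all of its spread from the other groups and assumes that the lone control value varies as they do.

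Signs of RNA quality differed between arrays. The difference of the 3′ over the 5′ beta-actin control probe set was 2.03, 1.84 and 2.80 log2 units in cold at 5 weeks, against 1.04, 1.10 and 1.16 in control at 5 weeks, so it separated these groups without overlap. It was 1.33, 1.16 and 1.01 in cold at 1 week, against 1.25, 1.35 and 1.22 in control at 1 week. With this value as a covariate, a choice made after seeing the data, Mb alone of the 27 genes passed at 5 weeks, against 2.41% of all tested genes, and 4 had an unadjusted p under 0.05. The fold change was then -6.15 (SE 3.10) for Acta1, -8.35 (SE 2.62) for Myh1 and -2.04 (SE 0.48) for Mb, so the SE of each was about doubled while the change was of similar size. For Atp2a1 the fold change moved to -1.99 (SE 2.37) with this covariate, against -3.68 without it. The same difference for the Gapdh control probe set was 0.96, 0.19 and 3.01 in cold and 0.03, -0.01 and -0.08 in control at 5 weeks, and -0.08, 0.34 and -0.08 in cold and 0.90, 3.00 and 3.12 in control at 1 week. Low Gapdh values thus stood on the 4 arrays high in muscle genes and also on replicates 1 and 3 of cold at 1 week and replicate 2 of cold at 5 weeks, which were not high. With the Gapdh value as a covariate 9 of the 12 calls at 5 weeks remained, against 19.3% of all tested genes. Myh1, Apobec2, Neb and Smpx are among these 9, and their calls are no test. The part of RNA quality in the 5 week result was not tested further.

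At 1 week limma called 3 of the 27 muscle genes higher in cold and 0 lower, against 17.9% higher and 31.6% lower of all tested genes. At an unadjusted p under 0.05 the counts were the same 3 and 0. Myl1 rose by 1.40 log2 units (SE 0.29, adjusted p = 0.00241), Mb by 0.89 (SE 0.23, adjusted p = 0.00731) and Myl3 by 0.68 (SE 0.16, adjusted p = 0.00445). For all 3, each cold array exceeded each control array, as in 6 of the 27 muscle genes and 26.0% of all tested genes. The rise did not rest on replicate 2 of cold, since without it Myl1 rose by 0.94 (adjusted p = 0.000267), Mb by 0.61 (adjusted p = 0.0178) and Myl3 by 0.59 (adjusted p = 0.017). With the Gapdh value as a covariate none of the 3 passed, with fold changes of 1.34 for Myl1 (adjusted p = 0.0505), 0.94 for Mb (adjusted p = 0.0691) and 0.62 for Myl3 (adjusted p = 0.0803, limma), and with the beta-actin value all 3 passed.

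The genes with the largest fold changes at 1 week had the widest spread. Tnnt3, described without a test, had 2.45, Atp2a1 2.19 (adjusted p = 0.126) and Ckm 2.11 (adjusted p = 0.186), and in each of them replicate 2 was the high array. Without that array 6 muscle genes were called lower in cold at 1 week, against 32.7% of all tested genes, and the same 3 higher, against 16.8%. They were Tnnc2 at -1.21 (adjusted p = 0.0346), Acta1 at -0.96 (adjusted p = 0.015), Ldb3 at -0.95 (adjusted p = 0.0426), Ttn at -0.74 (adjusted p = 0.0343), Mylpf at -0.61 (adjusted p = 0.0365) and Ryr1 at -0.49 (adjusted p = 0.00253, limma). Tnnc2, Acta1, Ttn and Mylpf changed sign with that array left out. The array was singled out for its high muscle signal, so these calls are descriptions.

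Brown adipocyte genes moved with cold beside these rises. Of 11 tested markers 9 rose at 1 week, against 17.9% of all tested genes, and 10 at 5 weeks, against 15.0%, and their mean was 10.65 to 10.85 in cold and 6.86 to 7.57 in control at 1 week, and 10.28 to 10.64 in cold and 7.14 to 7.48 in control at 5 weeks. Brown adipocytes are known to express Mb. In cold at 5 weeks over cold at 1 week the median log2 fold change of the markers was -0.36. Of the 11, 1 was called higher and 2 lower, against 27.5% of all tested genes in either direction. Without overlap, 6 of 11 were lower at 5 weeks and 3 of 11 were higher. The share of all tested genes without overlap was not counted for this comparison. The part of brown adipocytes in the 1 week rise of Mb, Myl1 and Myl3 was not tested.

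Between the controls, 5 of the 27 muscle genes rose at 5 weeks over 1 week and 0 fell, against 1.28% and 1.27% of all tested genes. At an unadjusted p under 0.05, 16 were higher and 0 lower. Mb rose by 2.24 log2 units (adjusted p = 0.00065, limma), and Myh1, described without a test, was 6.64 log2 units higher. The other 3 were Neb at least 1.30-fold higher, Apobec2 at least 4.19-fold and Smpx at least 1.51-fold. They are among the 6 that passed the filter only through high arrays, so their calls are no test. Of the other 21 genes 2 rose, Mb and Myh1, and the call of Myh1 is no test either. In 22 of the 27 no array of control at 1 week reached one of control at 5 weeks, against 10.5% of all tested genes. This comparison shares its 3 control arrays at 5 weeks with the cold comparison of that time, so both rest on the same high arrays. Without replicate 2 of cold at 1 week 20 rose, against 1.76% of all tested genes, and with replicate 2 of both 1 week groups left out 17 rose, against 0.638%. Both counts include Myh1 and the 6 genes that passed the filter only through high arrays, whose calls are no test. For the fits that follow, the share of all tested genes was not counted. With the Gapdh covariate, or with control at 5 weeks averaged, 1 rose, and 1 or 2 rose without any single array of control at 5 weeks or without replicate 2 or 3 of control at 1 week.

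Between the cold groups, Myl1 (-1.14, adjusted p = 0.0158), Mb (-0.88, adjusted p = 0.0156) and Myl3 (-0.53, adjusted p = 0.0292, limma) fell at 5 weeks relative to 1 week. A dimmer Myl3 probe set that passed the filter differed by -0.03 here, and by 0.35 between cold and control at 1 week. With probe sets averaged, Myl1 and Mb passed between the cold groups and Myl3 did not. No muscle gene rose, also at an unadjusted p under 0.05, and 27.5% of all tested genes passed in either direction. Without replicate 2 of cold at 1 week Myl1 (-0.69) and Mb (-0.60) still fell, Ryr1 rose (0.37, adjusted p = 0.0231, limma) and Myl3 did not pass, against 26.2% of all tested genes in either direction. Apart from replicate 2 of cold at 1 week, the cold arrays of both times read 4.65 to 4.89 on the mean of the 27 genes.

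The high arrays were alike in many genes and unlike in some. The gap of replicate 2 of cold at 1 week over the other arrays of its group and the gap of control over cold at 5 weeks share no array. Over the 27 tested genes they correlated across genes at Pearson's r of 0.758 and Spearman's rho of 0.799, a description over genes that share arrays and are not independent. Of the 36 genes 22 were highest on replicate 2 of cold at 1 week and 5 on an array of control at 5 weeks. Replicate 2 of cold at 1 week lay above the mean of control at 5 weeks by 4.02 log2 units for Actn3, 3.72 for Mybpc2, 3.41 for Myh4, 3.29 for Pvalb and 2.97 for Ckm. For Ttn the difference was 0.50, for Smpx 0.12 and for Neb -0.18, and for Mb and Myh1 it was -0.81 and -3.01. It lay above all 3 arrays of control at 5 weeks in 28 of the 36 genes and below all 3 in 2. Among the 28 were 10 of 11 fast sarcomere genes, 4 of 6 slow ones and 6 of 9 of any fibre. The slow ones were Myl3 at 6.80 against at most 6.01, Myh7 at 4.81 against 4.78, Tnni1 at 3.81 against 3.79 and Myl2 at 2.30 against 2.27. All of these gaps but that of Myl3 were slight. The 28 also include untested genes near the floor, such as Myh2 at 2.67 against at most 2.56. The share of all tested genes was not counted, so whether 28 of 36 is unusual cannot be told. With 1 array on one side this comparison has no replicate check.

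**Figure D4:**
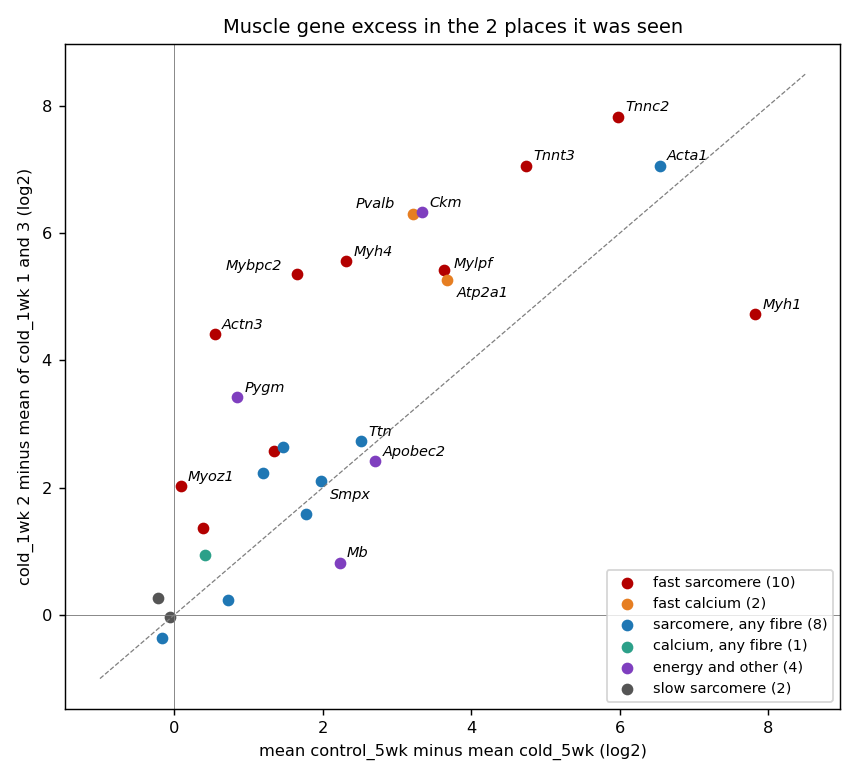
For each of the 27 tested muscle genes, the mean of control minus the mean of cold at 5 weeks (x axis, log2) and replicate 2 of cold at 1 week minus the mean of replicates 1 and 3 (y axis, log2), coloured by role, with the line of equality dashed. Most fast genes lie above the line, Myh1 and Mb lie below it, and the 2 slow genes lie near 0.

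The counts of other muscle genes from textbook lists at 5 weeks stand beside the 21.2% lower and 15.0% higher of all tested genes, and their difference from the 27 was not tested. Of 23 tested fibre structure genes outside the 36, Tpm3, a tropomyosin (-0.66, adjusted p = 0.000297), Tmod4, which caps muscle thin filaments (-1.53, adjusted p = 0.0149), and Tpm2, a tropomyosin (-0.46, adjusted p = 0.025), fell. Mylk2, the skeletal myosin light chain kinase, rose (0.30, adjusted p = 0.0476, limma), and the median of the 23 was 0.05. Tmod4 read 3.14, 4.09 and 4.10 in cold and 5.28, 5.40 and 5.23 in control at 5 weeks, and 4.61, 6.34 and 4.51 in cold and 5.03, 5.53 and 5.23 in control at 1 week. It was highest on replicate 2 of cold at 1 week, and the controls of both times overlapped. Tpm3, by contrast, read 11.86 to 12.17 in cold and 12.62 to 12.69 in control at 5 weeks, and 11.76 on replicate 2 of cold at 1 week, between the other arrays of that group.

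Of 15 other calcium genes, Atp2a2, the slow-fibre and general calcium pump, rose at 5 weeks (0.39, adjusted p = 0.0027, limma) and none fell, also at an unadjusted p under 0.05; the median was 0.18. Hspb6, a small heat shock protein (0.64, adjusted p = 0.0638), Cacna2d1, a calcium channel subunit (0.93, adjusted p = 0.0922), and Asph (-0.26, adjusted p = 0.118) came next. Of 15 other metabolic genes 3 rose and 3 fell, with a median of 0.02. Fbp2, muscle fructose bisphosphatase (1.44, adjusted p = 0.000217), Ak1, adenylate kinase (0.95, adjusted p = 0.012), and Tfrc, the transferrin receptor (0.59, adjusted p = 0.0305), rose, and Eef1a2, the elongation factor of adult muscle (-0.82, adjusted p = 0.0281), Cox6a2 (-0.84, adjusted p = 0.0321) and Phkg1 (-0.28, adjusted p = 0.032, limma) fell. Named after their values were seen, the glycolytic genes Pgam2 and Eno3 read 7.92 and 10.13 on replicate 2 of cold at 1 week. Pgam2 read 3.91, 3.88 and 3.02 in cold and 4.60, 4.46 and 4.40 in control at 5 weeks, and Eno3 7.67, 7.63 and 7.50 in cold and 8.96, 8.82 and 9.09 in control at 5 weeks.

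Lists for other cells that could accompany muscle differed between arrays to unequal degrees. The 5 tested peripheral nerve genes averaged 7.59 to 7.73 in control and 8.73 to 8.88 in cold at 5 weeks. At 1 week they averaged 7.9 to 8.02 in control and 8.36 to 8.62 in cold. Their median log2 fold change at 5 weeks was 0.26, smaller than the gap between these means. Of these genes 1 was called higher and 1 lower at 5 weeks, against 15.0% and 21.2% of all tested genes. Endothelial genes averaged 8.54 to 8.98 on the 12 arrays, and skin and mammary epithelium genes 6.05 to 6.37. Smooth muscle genes averaged 8.18 on replicate 2 of cold at 1 week and 8.13, 8.22 and 8.24 in control at 5 weeks, against 7.91 to 8.14 on the other 8 arrays, so they were highest on 3 of the 4 arrays high in fibre genes. The junction and cardiac lists had their highest mean on replicate 2 of cold at 1 week, as did the tendon list, level there with replicate 2 of control at 5 weeks. The part of these cells was not tested. Of 11 myoblast and satellite cell genes 3 were tested, with a mean of 8.01 to 8.85 on the 12 arrays. Vcam1, an adhesion molecule that endothelium and macrophages also carry, fell at 5 weeks (-1.18, adjusted p = 3.44e-05, limma), and Mef2c (-0.26) and Pax3 (0.18) did not pass. Of 7 neuromuscular junction genes 2 were tested (mean 4.73 to 5.29) and of 10 cardiac genes 3 (mean 4.88 to 5.49), and none of these 5 passed at 5 weeks, also at an unadjusted p under 0.05. The 4 tested tendon genes averaged 5.62 to 5.84 on all arrays, with 0 of 4 called at 5 weeks, and 0 of 4 at an unadjusted p under 0.05. Of the 6 smooth muscle genes 2 were called higher and 2 lower at 5 weeks, with a mean of 8.01 to 8.03 in cold and 8.13 to 8.24 in control. White adipocyte genes averaged 12.47 to 13.12 on the 12 arrays. None of the 8 epididymal and mesothelial genes was bright enough to test.

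Immune cell genes fell with the muscle genes at 5 weeks, 5 of 6 macrophage and 6 of 6 lymphocyte genes, against 21.2% of all tested genes, with means of 10.35 to 10.47 and 9.45 to 9.61 in cold and 11.08 to 11.14 and 10.36 to 10.47 in control. At 1 week 6 of 6 of each fell, against 31.6%, and replicate 2 of cold read 10.55 and 9.82 on these lists, against 10.30 to 10.56 and 9.27 to 9.30 on the other cold arrays. Their part in the muscle result was not tested.

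The cold effect at 5 weeks was lower than that at 1 week in 12 of the 27 muscle genes by the interaction term in limma, against 8.39% of all tested genes, and higher in 0, against 11.5%, also at an unadjusted p under 0.05. Of the 12, 4 had passed the filter only through high arrays, and 8, with Myh1 among them, were of the other 21. Mb differed by -3.12 log2 units (SE 0.32, adjusted p = 0.00152, limma), and Myh1, described without a test, by -8.30. Without replicate 2 of cold at 1 week these differences were -2.84 for Mb and -6.73 for Myh1, and 19 genes passed, against 7.26% of all tested genes. Myh1 and the 6 genes that passed the filter only through high arrays were among the 19. With the Gapdh or the beta-actin covariate 0 of 27 passed (11 and 5 at an unadjusted p under 0.05), with differences of -3.20 and -2.91 for Mb. Without replicate 2 of control at 5 weeks 6 passed. For these fits the share of all tested genes that passed was not counted. With replicate 2 of cold at 1 week set aside, the mean of the 27 genes at 1 week lay between 4.81 and 4.89 in cold and 4.77 and 5.16 in control. At 5 weeks it lay between 4.65 and 4.74 in cold and 6.82 and 7.09 in control.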

How the data were processed

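Expression was measured on 12 Affymetrix arrays, from 5 µg of total RNA each. The authors deposited log2 signals per probe set, made with GCRMA per the submitters' processing notes, whose version is not given in the sources used here. GCRMA removes background, normalizes arrays and merges probes, so low signals gather near a floor and fold changes of dim genes are understated. The table held 45101 probe sets and 0 missing values. Of these, 34958 named 1 gene, 932 several and 9211 none, and only those with 1 gene were used, with symbols updated through the gene identifier where possible (34754). Genes were tested with the brightest probe set by mean of 12 arrays, above log2 4 on at least 3 arrays.

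Tests used limma 3.58.1 under R 4.3.3 (lmFit and eBayes, 2-sided, 4 group means, all 12 arrays), with Benjamini-Hochberg adjustment over 12856 genes at 0.05. The script was tested on simulated data with 200 changed genes. Where a whole group lay below log2 4, signals under 4 were raised to 4 and the fold is a lower bound. All 36 members are accounted for; signals of every array are given for the brightest members of each role and for every member called in a contrast over all 12 arrays, and of the other muscle lists up to 4 genes with the smallest adjusted p at 5 weeks. Cox6a2 and Phkg1, which complete a count, and Pgam2 and Eno3 were named outside this rule after their values were seen. The members, gene lists and comparisons were chosen with earlier results of these data known. No pairing by replicate number was seen, as same-numbered arrays of different groups had correlations of deviations between -0.027 and 0.074. Such values cannot show that the samples were unpaired. Alternatives changed the filter, a floor, probe set averaging, centring, quantile normalization, array weights, the groups fitted, a Gapdh or beta-actin covariate, a replicate block and the arrays left out. Promoters were searched in Python 3.11.15, and figures drawn with matplotlib 3.10.9.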

Additional observations from a re-analysis of the deposited data

Results flagged for a closer look

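In 12 muscle genes the cold effect differed between 5 weeks and 1 week by the interaction term in limma, lower at 5 weeks in each. The differences on the log2 scale were -8.30 for Myh1, -7.94 for Acta1, -7.38 for Tnnc2, -7.19 for Tnnt3, -5.87 for Atp2a1 and -4.84 for Mylpf. They were -3.75 for Apobec2, -3.12 for Mb, -2.78 for Smpx, -2.70 for Ttn, -2.37 for Neb and -1.79 for Myl1. Tnnt3, Apobec2, Smpx and Neb passed the filter only through arrays high in muscle genes, so their calls are no test. Myh1 passed it only with control at 5 weeks, so its call is no test either. All 12 passed without replicate 2 of cold at 1 week and 6 without replicate 2 of control at 5 weeks. With the Gapdh covariate 0 passed and 11 had an unadjusted p under 0.05, and with the beta-actin covariate 0 and 5. With control at 5 weeks averaged and counted as 1 array, 0 of 27 passed and 14 had an unadjusted p under 0.05, with all spread taken from the other groups.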

How the results depend on the processing

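Counts are of the 27 tested muscle genes called by limma, and the cause of a change was not tested unless stated. They can include Myh1 and the 6 genes that passed the filter only through high arrays, whose calls are no test. Shares of all tested genes are given above for some of these fits only. At 1 week 3 were called; with no filter 5 of 36, with centred arrays 7, with the Gapdh covariate 0 (3 at an unadjusted p under 0.05), and with replicate 2 of both 1 week groups left out, a choice made after seeing the data, 5. Leaving out 1 array at a time gave 3 to 9, with 5, 9 and 6 without cold 1 week replicate 1, 2 and 3. At 5 weeks 12 were called; with only the 2 groups 22, with array weights 19, with control at 5 weeks averaged 3, with the beta-actin covariate, chosen after seeing the data, 1, with both replicates 2 left out 23, and 8 to 23 over single arrays left out. The rise to 23 comes from a smaller spread, since the fold changes are unchanged. The interaction called 12; with no filter 7 of 36, with the Gapdh covariate 0 (11 unadjusted), with the beta-actin covariate 0 (5 unadjusted), with control at 5 weeks averaged 0 (14 unadjusted), with both left out 19, and 6 to 19 over single arrays left out, with 7 without control 1 week replicate 2 or 3 or cold 5 week replicate 3, and 6 without control 5 week replicate 2. It cannot be fitted with 2 groups. Control at 5 weeks over 1 week called 5; with the floor 3, with only the 2 groups 17, with array weights 16, with the Gapdh covariate 1, with control at 5 weeks averaged 1, with both left out 17, and 1 to 20 over single arrays, 1 or 2 without any array of control at 5 weeks or without control 1 week replicate 2 or 3. Cold at 5 weeks over 1 week called 3; with only the 2 groups 0 (3 unadjusted), with array weights 1, with the Gapdh covariate 0 (3 unadjusted), with the beta-actin covariate 0 (0 unadjusted), and 0 to 5 over single arrays, with 0 without cold 5 week replicate 3 and 5 without cold 1 week replicate 1. The mean excess of cold 1 week replicate 2 was 3.34, and 2.64 over all 36 genes, and that of control over cold at 5 weeks 2.25, and 1.74 over all 36.

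At 1 week 4 genes reversed without cold 1 week replicate 2. Over single arrays left out the log2 fold change of Acta1 ran from -0.96 to 2.73 (and was -0.98 with both replicates 2 left out), of Mylpf from -0.61 to 2.16, of Tnnc2 from -1.21 to 2.72 and of Ttn from -0.74 to 0.76. With the replicate number, by which no pairing was seen, as a block, the counts were 3, 14, 15, 5 and 3 in the order above. Quantile normalization and probe set averaging kept every count within 1.5 times. Of 135 single fold changes, 107 kept their direction and side of the threshold with the Gapdh covariate and 105 with the beta-actin covariate. Signals near the GCRMA floor limit the slow genes, of which 4 of 6 could not be tested.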

Other observations

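Of genes on none of the lists, those whose signal most resembled the mean of the 27 muscle genes over the 12 arrays were Vgll4 (Pearson's r 0.88), Nelfe (0.876), F8a (0.873), Pard6a (0.87), Mri1 (0.869), Anapc7 (0.859), 4833427F10Rik (0.856), Blvrb (0.848), Arhgef7 (0.845) and Rpain (0.841). These are the highest of the correlations of all tested genes over 12 arrays, and differences between their arrays were small. Vgll4 read 5.82 on replicate 2 of cold at 1 week, 5.14 to 5.45 in cold at 5 weeks and 5.49 to 5.78 in control at 5 weeks.

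Among genes outside the lists, replicate 2 of cold at 1 week stood above both other arrays of its group by the widest margin for Slc15a2 (1.99 log2 units) and Lig1 (1.95). Mzb1 read 9.36 there and 7.84 and 7.93 on the other cold arrays of that time, within the 8.65 to 9.58 of control at 1 week and below the 9.47 to 9.67 of control at 5 weeks.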
